A study of Homo sapiens with 6 samples.

Results

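Endothelial cells hold a vessel wall together through a small set of junction and surface proteins, and the chromatin at 10 of their genes was read here: CDH5, CLDN5, ESAM, PECAM1, ICAM2, VWF, EMCN, ENG, ECSCR and EGFL7. The genes were chosen by name and not by a rule on measured values, though with earlier results of these data known. They come out of 19974 protein-coding genes on chromosomes 1 to 22 and X. Every deposited island of histone mark that overlapped the span of such a gene, or the 10 kb on either side, was taken, which gave 51 islands in 4 lists. An island is an enriched stretch that the authors' peak caller joined from neighbouring windows.

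The cells were endothelial cells positive for the transcription factor GATA2, derived from the established human embryonic stem cell line H1, and all libraries share this line and this cell type. They were derived in the condition labelled Vc− or in the condition labelled Vc+, where the series title gives vitamin C for Vc. Chromatin immunoprecipitation and sequencing was made for H3K4me3 and H3K27me3, with 1 library per mark and condition, and the 2 inputs were not used here. With 1 library a group there is no replicate check, so no test was made and each difference is one between 2 libraries. For each of the 4 lists the file name and the sample label disagree on the condition. The label was used, so the Vc− and Vc+ libraries below are those labelled so, and every direction between them rests on that choice. The series' design describes cells sorted by a GATA2 reporter into positive and negative, where every sample label says positive. The extraction protocol names antibodies to H3K27me3, while the antibody field of the samples names both marks.

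H3K4me3 marks promoters that are active or poised, and in active genes it usually reaches from the start site into the first part of the gene. H3K27me3 is placed by Polycomb repressive complex 2 and is known for silent developmental genes. Promoters that carry both are called bivalent. In endothelium the adherens junction is built on VE-cadherin and the tight junction on claudin-5, while molecules such as PECAM-1, ESAM and ICAM-2 sit at or near the cell border, and the transcription of many of these genes is known to depend on ETS factors.

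The lists held 22307 H3K4me3 islands in the Vc− library and 21991 in the Vc+ library, covering 43.3 and 48.2 Mb, and 8990 and 9639 H3K27me3 islands, covering 40.6 and 51.7 Mb. Read depth is unknown from these lists. The endothelial label was checked at marker start sites. H3K4me3 lay at 7 of 7 endothelial markers in each library, where 71.5% (Vc−) and 71.9% (Vc+) of all protein-coding genes carried it. The check is weak, since most genes and several markers of other cell types carried the mark too. Of the 7, CDH5 and PECAM1 are among the 10 genes and KDR, TEK, ERG, FLI1 and SOX17 are not. Among the blood markers H3K4me3 lay at RUNX1. ERG, SOX17 and RUNX1 carried H3K27me3 too. No H3K4me3 island lay at the start sites of PTPRC, SPN and ITGA2B, of POU5F1 and NANOG, and of PDGFRB and THY1. H3K4me3 was present at ACTA2, COL1A1 and TAGLN among the mesenchymal and mural markers, and at LIN28B and DPPA4, and in the Vc− library alone CRIPTO, among the pluripotency markers. Of 5 epithelial markers, 4 (CDH1, EPCAM, ESRP1 and GRHL2) carried H3K4me3 together with H3K27me3 in both libraries. H3K4me3 at a start site is a promoter mark and was not read as expression.

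The promoter sequences of the genes with a listed start site are shown first. Among them, the starts of EMCN and ECSCR were marked although they hold few CpG dinucleotides, and EGFL7 has a marked and an unmarked start. The RefSeq promoter table (GRCh38.p14) matched 4 of the 10 genes, EMCN, ENG, ECSCR and EGFL7, the last with 2 start sites. CDH5, CLDN5, ESAM, PECAM1, ICAM2 and VWF had no entry. Each line gives the 250 bases before the start site, 5′ to 3′ on the gene's strand, with CpG dinucleotides in capitals. They lie at chr4:100518023-100518272 (minus strand) for EMCN, chr5:139462744-139462993 (minus strand) for ECSCR and chr9:127854659-127854908 (minus strand) for ENG. For EGFL7 they lie at chr9:136658606-136658855 for the outer start and chr9:136662666-136662915 for the inner start, both on the plus strand.
EMCN: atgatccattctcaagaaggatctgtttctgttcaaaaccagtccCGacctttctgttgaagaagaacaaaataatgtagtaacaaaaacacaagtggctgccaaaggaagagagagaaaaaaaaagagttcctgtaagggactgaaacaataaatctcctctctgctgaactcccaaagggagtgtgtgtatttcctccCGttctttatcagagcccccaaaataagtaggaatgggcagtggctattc
ECSCR: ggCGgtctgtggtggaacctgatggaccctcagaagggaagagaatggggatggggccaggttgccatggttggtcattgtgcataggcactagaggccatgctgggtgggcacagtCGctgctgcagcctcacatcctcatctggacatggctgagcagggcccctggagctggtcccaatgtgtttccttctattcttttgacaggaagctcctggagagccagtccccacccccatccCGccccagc
ENG: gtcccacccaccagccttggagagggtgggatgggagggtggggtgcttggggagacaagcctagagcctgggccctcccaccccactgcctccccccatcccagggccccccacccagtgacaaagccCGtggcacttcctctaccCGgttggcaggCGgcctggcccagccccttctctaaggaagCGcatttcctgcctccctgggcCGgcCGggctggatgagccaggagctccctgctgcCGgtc
EGFL7, outer start: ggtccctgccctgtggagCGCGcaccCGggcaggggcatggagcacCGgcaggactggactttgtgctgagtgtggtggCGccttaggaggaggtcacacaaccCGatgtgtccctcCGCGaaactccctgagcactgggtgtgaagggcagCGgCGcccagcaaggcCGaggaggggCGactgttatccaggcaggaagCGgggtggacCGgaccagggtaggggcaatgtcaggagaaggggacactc
EGFL7, inner start: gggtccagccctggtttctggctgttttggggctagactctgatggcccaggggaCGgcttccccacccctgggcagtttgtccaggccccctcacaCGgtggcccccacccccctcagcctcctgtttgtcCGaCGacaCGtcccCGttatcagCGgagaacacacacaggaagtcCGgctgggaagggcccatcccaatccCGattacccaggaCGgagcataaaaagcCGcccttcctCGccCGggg

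Over the whole table window of 300 bases, which runs 50 bases past the start, EMCN held 2 CpG and ECSCR 3, fewer than the median of 21 over 22156 listed start sites of protein-coding genes. Only 6.03% of start sites held fewer CpG than EMCN and 10.3% fewer than ECSCR. ENG held 8 CpG, and the EGFL7 starts held 15 (outer) and 14 (inner). Among the 5771 start sites with 0 to 7 CpG, to which EMCN and ECSCR belong, an H3K4me3 island lay within 1 kb at 16.6% in the Vc− library and 17.1% in the Vc+ library. Both genes were among those marked, in both libraries. In the next group, with 8 to 21 CpG, where ENG and both EGFL7 starts belong, the shares were 73.2% and 73.8%.

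Short motifs were searched on both strands of these windows. The ETS core GGAA, which is part of the longer ETS site CCGGAAG, was found 5 times at EMCN, 4 times at ECSCR, 3 times at ENG, 4 times at the inner EGFL7 start and 1 time at the outer start. At least 1 such core is held by 95.1% of all listed promoter windows, with a median of 3. The SOX site AACAAT was found 1 time at EMCN, and 7.42% of all windows hold it. CCGGAAG, the GATA site AGATAA and the TATA box TATAAA, held by 12.8%, 7.88% and 9.46% of all windows, were found in none of these 5. Only these exact letters were searched, so other forms of the GATA, ETS, SOX and TATA sites were not counted and may be present. A match is a description of the letters and not of a bound site.

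H3K4me3 lay within the span or 10 kb of it at 10 of 10 genes in both libraries, where the share of all protein-coding genes was 80.2% (Vc−) and 80.3% (Vc+). H3K27me3 did so at 3 of 10 genes in the Vc− library (CLDN5, ESAM and VWF) and at 4 of 10 in the Vc+ library (the same 3 and CDH5), against 23.8% and 26.5% of all genes. The 10 spans had a median length of 28.1 kb, against 24.2 kb over all genes. PECAM1, ICAM2, EMCN, ENG, ECSCR and EGFL7, 6 of the 10, had no H3K27me3 island in either library. The counts for H3K27me3 lie near the share in all genes and are no result about these 10.

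Start sites were then read with a window of 1 kb on either side. For the 6 genes without a listed start both ends of the span were used, as for 4161 of the 19974 genes, so that islands at a 3′ end count too. By this rule H3K4me3 was called at 8 of 10 genes in the Vc− library and 9 of 10 in the Vc+ library, against 71.5% and 71.9% of all genes, and H3K27me3 at 2 and 4 of 10, against 15% and 16.4%. H3K4me3 was called in the Vc+ library alone at VWF, against 1.18% of all genes, and in the Vc− library alone at 0 of 10, against 0.786%. H3K27me3 was called in the Vc+ library alone at CDH5 and VWF, against 2.64% of all genes, and in the Vc− library alone at 0 of 10, against 1.25%.

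The direction of transcription, known for all 10 genes although not given by the gene table for the 6, places these calls. CDH5 runs towards higher coordinates, and CLDN5, ESAM, PECAM1, ICAM2 and VWF run towards lower ones. Read at the 5′ end alone, H3K27me3 was called at CLDN5 in both libraries and at no other of the 10 genes. The number in the Vc+ library alone was then 0, because the H3K27me3 islands at CDH5 and VWF lay at the 3′ ends. H3K4me3 at 5′ ends did not change with this reading, at 8 and 9 of 10 genes. Exons, introns and untranslated parts are not told apart by the gene table.

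CDH5 (NCBI gene 1003, GRCh38 chromosome 16, 66366691 to 66404784) encodes VE-cadherin, the adhesive protein of endothelial adherens junctions. Its 5′ end lay under an H3K4me3 island of 5.8 kb in the Vc− library (66365801 to 66371600) and of 4.8 kb in the Vc+ library (66366201 to 66371000). The first reached from 0.89 kb before the 5′ end to 4.91 kb after it and the second from 0.49 kb before to 4.31 kb after, so the edges differed by 0.4 and 0.6 kb. The authors' scores of these islands were above 80.9% of the scores in the Vc− list and 85.8% in the Vc+ list. A smaller H3K4me3 island began 3.09 kb before the 5′ end in both libraries. Both this island and the one at the 5′ end overlapped the long non-coding RNA gene LOC105371318.

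Further H3K4me3 islands at CDH5 were small. One lay past the 3′ end in both libraries, 0.4 kb wide (Vc−) and 1 kb wide (Vc+), and one of 1 kb lay 15.5 kb inside the gene in the Vc+ library alone. The H3K27me3 island of the Vc+ library was 1.6 kb wide (66403601 to 66405200), and 36.9 kb from the 5′ end. Only 3.04% of the islands in its list were narrower. It ended 1.2 kb short of the H3K4me3 island past the gene, so the marks did not overlap at CDH5, and no H3K27me3 island of the Vc− library lay within 10 kb of the gene. The nearest one was 18.4 kb from an end of the gene, and with a flank of 20 kb the mark was called at 4 of the 10 genes in both libraries.

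CLDN5 (gene 7122, chromosome 22, 19523024 to 19525337) encodes claudin-5, the main claudin of endothelial tight junctions, and was the gene of the 10 with both marks at its start. Its H3K4me3 island covered the whole gene, with 3.4 kb in the Vc− library (19522001 to 19525400) and 3.6 kb in the Vc+ library (19521801 to 19525400). These islands ended at the same position, 0.063 kb before the 5′ end. The H3K27me3 islands were 1.8 kb wide in both libraries, from 19523601 to 19525400 (Vc−) and from 19523201 to 19525000 (Vc+), and overlapped each other by 1.4 kb. Each lay wholly inside the H3K4me3 island of the same condition. The Vc− island reached over the 5′ end and the Vc+ island began 0.337 kb after it, and their scores of 14 and 16.5 were above 58.2% and 62.2% of their lists.

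ESAM (gene 90952, chromosome 11, 124753126 to 124762290) encodes an immunoglobulin-type adhesion molecule of endothelial tight junctions. The H3K4me3 island at its 5′ end had the capped score of 1000 in both lists and was 5.4 kb wide in the Vc− library (124758001 to 124763400) and 6.8 kb in the Vc+ library (124757001 to 124763800). Both islands overlapped the antisense gene ESAM-AS1 and lay within 1 kb of a start of it. The mark of each gene cannot be told apart there. H3K27me3 lay over the 3′ part of ESAM and beyond it, over VSIG2, an immunoglobulin-type membrane protein, and NRGN, which encodes the neuronal protein neurogranin.

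In the Vc− library 3 H3K27me3 islands of 7, 4.8 and 3.6 kb, with gaps of 0.8 kb, met the span or its 10 kb flanks. In the Vc+ library 1 island of 25 kb (124734401 to 124759400) did. A gap of 0.8 kb is the smallest in either H3K27me3 list. The 25 kb island began further from ESAM than the 3 islands, and Vc− islands wholly outside the flank were not read, so these widths are not like for like. Within 10 kb of ESAM the covered length was 13.1 kb (Vc−) and 16.3 kb (Vc+). In the Vc− library the island nearest the start ended 0.2 kb from the H3K4me3 island. In the Vc+ library the H3K27me3 island reached 2.4 kb into the H3K4me3 island and came to 2.89 kb from the 5′ end. H3K4me3 and H3K27me3 also overlapped near NRGN-AS1 over 1.4 kb (Vc−) and 3.2 kb (Vc+), at the 3′ end of ESAM over 0.8 and 1 kb, and in the Vc+ library also over 1.6 kb inside VSIG2.

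PECAM1 (gene 5175, chromosome 17, 64319415 to 64390860) encodes PECAM-1 or CD31, a homophilic adhesion molecule of endothelial borders, platelets and leukocytes. Its 5′ end carried an H3K4me3 island of 2.8 kb in the Vc− library (64388801 to 64391600) and of 5.4 kb in the Vc+ library (64387001 to 64392400), 1.93 times as wide. The wider island went further on both sides, to 1.54 kb before and 3.86 kb after the 5′ end, where the other reached 0.74 and 2.06 kb. A second island of 1 kb, 4.86 kb into the gene, was called in the Vc− library alone with a score of 6.13.

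**Figure D1:**
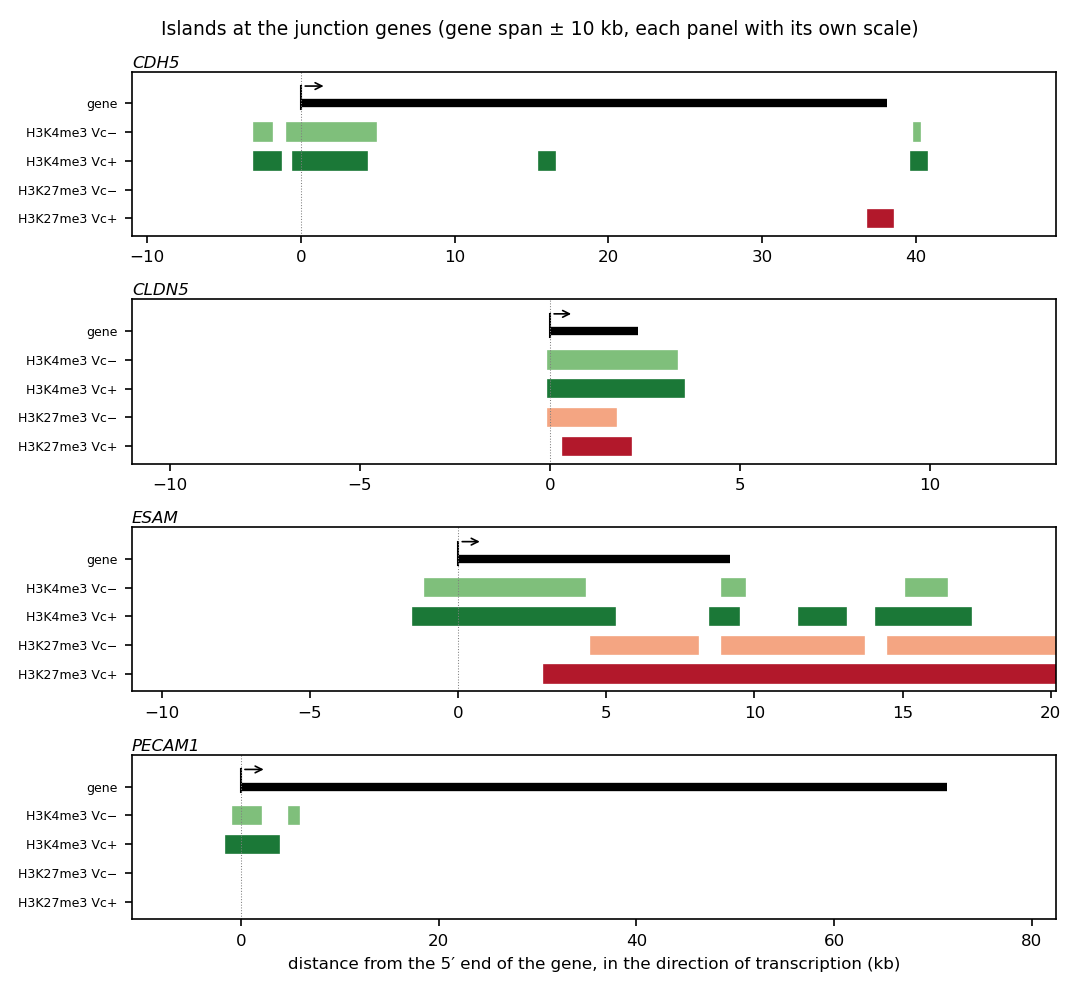
Islands of both marks at CDH5, CLDN5, ESAM and PECAM1, 1 row per library, along the distance from the 5′ end of each gene in kb (black bar, the gene; arrow, direction of transcription; each panel has its own scale and ends 11 kb outside the gene, where the ESAM islands go on). H3K4me3 covers the 5′ end of all 4 genes in both libraries, and H3K27me3 lies inside the H3K4me3 island at CLDN5, over the 3′ part of ESAM and, in the Vc+ library, at the 3′ end of CDH5.

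ICAM2 (gene 3384, chromosome 17, 64002595 to 64020633) encodes a ligand of leukocyte integrins. It was the gene without an H3K4me3 island within 1 kb of either end in either library. An island inside the gene, 13.4 kb from the outermost 5′ end, was called in both libraries, with 1.8 kb (Vc−, 64005401 to 64007200) and 2.8 kb (Vc+, 64004401 to 64007200). The islands share their 5′ edge. Whether a start site of a shorter transcript lies there is not given by the table. An island of 1 kb, 3.43 kb from the 5′ end, was called in the Vc− library alone. Another, 3 kb past the 3′ end in both libraries, overlapped PRR29 and PRR29-AS1 and lay within 1 kb of a start of PRR29-AS1.

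VWF (gene 7450, chromosome 12, 5948877 to 6124670) encodes von Willebrand factor, the platelet-binding protein that endothelial cells store and release. Its 5′ end was marked by H3K4me3 in the Vc+ library alone, by an island of 2.2 kb (6123001 to 6125200) whose score of 9.49 was above only 11.9% of its list. The call was lost with a score minimum of 10 and when the longer list was shortened to equal covered length, which leaves 0 of the 10 genes with H3K4me3 in Vc+ alone. The Vc− library had instead 2 islands of 0.4 kb inside the gene, 66.7 and 67.5 kb from the 5′ end. The other islands lay past the 3′ end, at the start of the neighbouring gene ANO2, which encodes an anoctamin channel. There H3K4me3 spanned 1 kb (Vc−) and 2 kb (Vc+), inside H3K27me3 islands of 4 kb (5943801 to 5947800) and 5.8 kb (5943401 to 5949200). The H3K27me3 island of the Vc+ library reached 0.324 kb into VWF, and that of the Vc− library stopped 1.08 kb short of it. The calls of H3K27me3 at VWF thus came from islands that overlapped ANO2 within 1 kb of a start of it. They lay 177 kb (Vc−) and 175 kb (Vc+) from the VWF 5′ end.

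EMCN (gene 51705, chromosome 4, 100395341 to 100518022) encodes endomucin, a sialomucin of venous and capillary endothelium. It had 1 H3K4me3 island in each library, of 1.2 kb (Vc−, 100516801 to 100518000) and 2.4 kb (Vc+, 100516201 to 100518600). The narrower one ended 0.022 kb inside the start site and the wider one reached 0.578 kb before it. The order of the scores within their lists was the other way, since the narrower island stood above 37.4% of its list and the wider one above 18.5%.

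ENG (gene 2022, chromosome 9, 127815016 to 127854658) encodes endoglin, a co-receptor for TGF-β and BMP ligands. Its start lay under an H3K4me3 island of 3.2 kb (Vc−, 127852201 to 127855400) and 2.6 kb (Vc+, 127852401 to 127855000). Both islands overlapped the non-coding gene LOC124902279 and lay within 1 kb of a start of it. The Vc− library had islands of 0.8 kb inside the gene, 9.06 kb from the start, and of 0.6 kb, 7.74 kb before the start. Neither was called in the Vc+ library. Their scores of 4.88 and 7 were above 4.34% and 7.54% of their list.

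ECSCR (gene 641700, chromosome 5, 139448560 to 139462743) encodes a cell surface regulator of endothelial chemotaxis. Its start carried H3K4me3 islands of 4 kb in both libraries (Vc−, 139458801 to 139462800; Vc+, 139459001 to 139463000), shifted by 0.2 kb. At this CpG-poor start the width was thus the same in both libraries. The other island near ECSCR, 8.76 kb past its 3′ end, lay at the start of DNAJC18.

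EGFL7 (gene 51162, chromosome 9, 136658856 to 136672678) encodes a secreted protein of endothelial cells and is the host gene of the microRNA miR-126. No island lay within 1 kb of the outer start at 136658856 in either library. The inner start at 136662916 lay under an H3K4me3 island with the capped score of 1000, 3 kb wide in the Vc− library (136662801 to 136665800) and 8.6 kb in the Vc+ library (136662401 to 136671000). In the Vc− library a second island of 4.8 kb (136666201 to 136671000) followed after a gap of 0.4 kb and ended at the same position. The covered length was therefore close, at 7.8 and 8.6 kb, although the island at the start was 2.87 times as wide.

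The H3K4me3 stretch at EGFL7 ended beyond the miR-126 hairpin (chr9:136670602-136670686, plus strand), and all 85 bases of the hairpin lay under an island in both libraries. Its mature products are shown because they are made from the marked stretch, with the seed (bases 2 to 8) in capitals. Their seeds differ, so they form no shared seed group.
hsa-miR-126-3p: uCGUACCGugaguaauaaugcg
hsa-miR-126-5p: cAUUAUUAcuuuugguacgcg

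**Figure D2:**
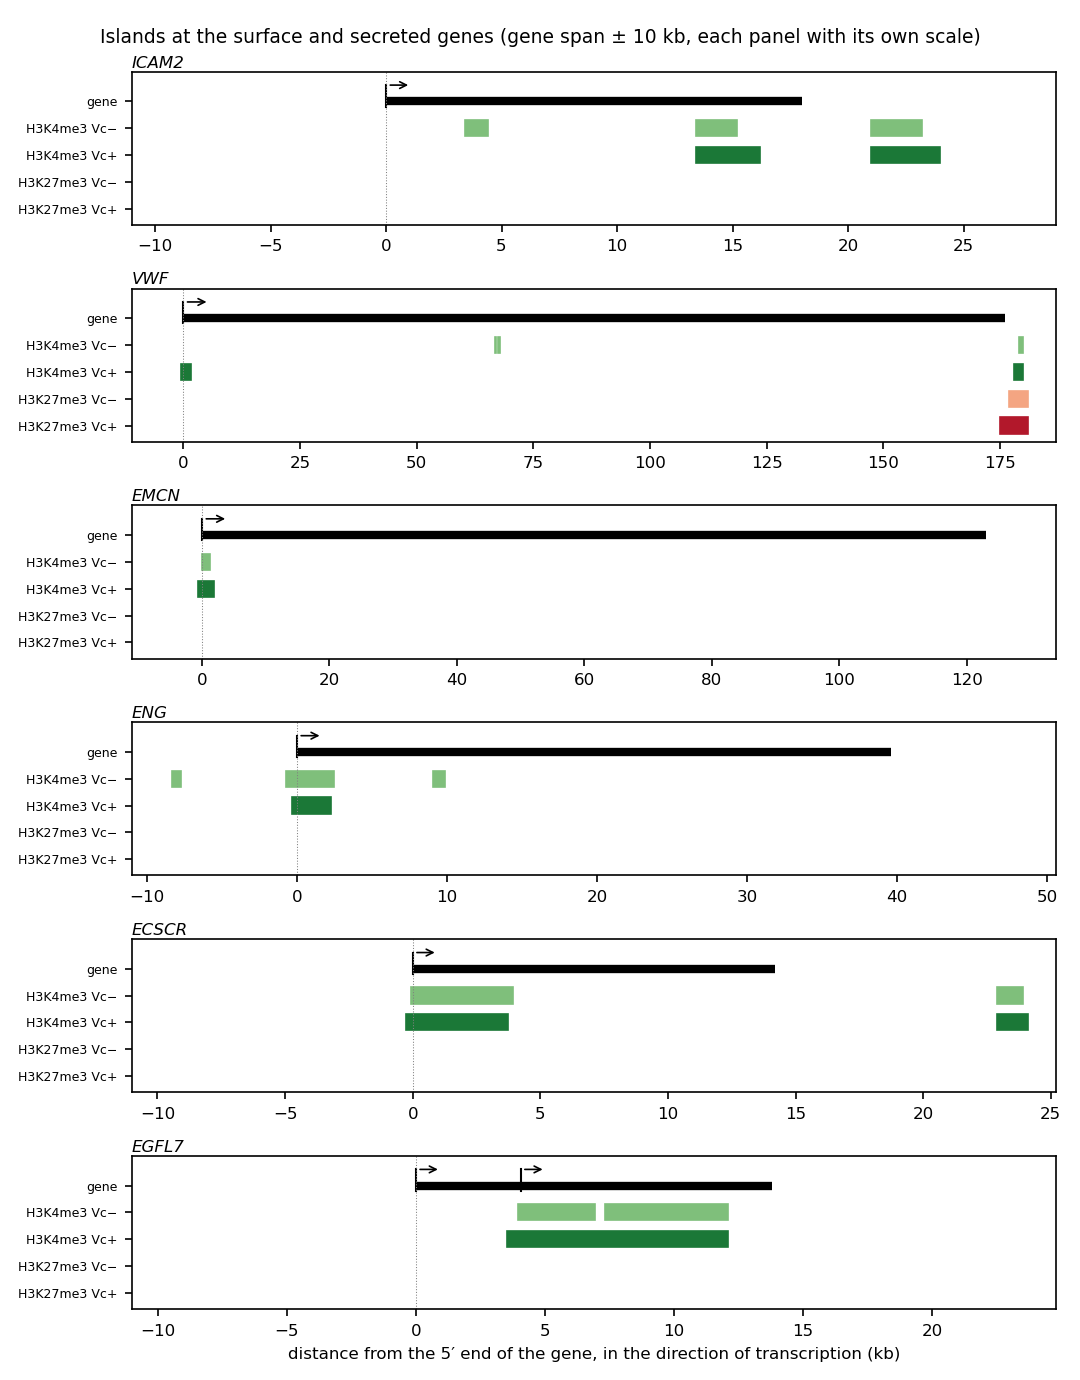
Islands of both marks at ICAM2, VWF, EMCN, ENG, ECSCR and EGFL7, 1 row per library, along the distance from the 5′ end in kb (black bar, the gene; arrows, direction of transcription at the 5′ end and, for EGFL7, also at the inner start; each panel has its own scale). H3K27me3 appears at the 3′ end of VWF, over ANO2, and at no other of these 6 genes, and H3K4me3 covers the inner but not the outer start of EGFL7.

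The length covered by H3K4me3 within 10 kb of a span was larger in the Vc+ library at 9 of the 10 genes and larger in the Vc− library at ENG. The ratio of Vc+ to Vc− had a median of 1.16 over the 10 genes, and 1.1 over the 15849 genes with the mark in both libraries, 61% of which were longer in the Vc+ library. It ran from 0.565 at ENG to 2.33 at VWF. A ratio of at least 1.5, a size chosen after the islands had been seen, was reached at ESAM (1.66), EMCN (2) and VWF (2.33), and its inverse at ENG. The shares of the 15849 genes with the mark in both libraries were 11.4% and 3.25%. The lengths were 7.6 against 12.6 kb at ESAM, 1.8 against 4.2 kb at VWF and 1.2 against 2.4 kb at EMCN. At ESAM they include the islands at NRGN-AS1, of 1.4 and 3.2 kb, and the 1.6 kb island inside VSIG2 that was called in the Vc+ library alone. At VWF they include the islands at the ANO2 start, of 1 and 2 kb, and the rest lay at different places in Vc− and Vc+. At ICAM2 the islands at PRR29-AS1 had 2.2 (Vc−) and 3 kb (Vc+), and those inside the gene 1.8 and 1 kb (Vc−) and 2.8 kb (Vc+). At ECSCR the start island had 4 kb in both libraries, and the island at DNAJC18 had 1 and 1.2 kb. At CDH5 the covered length was 7.4 kb (Vc−) and 8.6 kb (Vc+), while the start island was narrower in the Vc+ library, at 5.8 kb (Vc−) and 4.8 kb (Vc+).

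For H3K27me3 the covered length was equal at CLDN5 (1.8 kb in both), and the ratio was 1.24 at ESAM and 1.45 at VWF, against a median of 1.16 over 4292 genes. None of the 3 genes reached 1.5 in either direction. Of the 4292 genes with the mark in both libraries, 27% did so with more in the Vc+ library and 6.73% with more in the Vc− library.

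**Figure D3:**
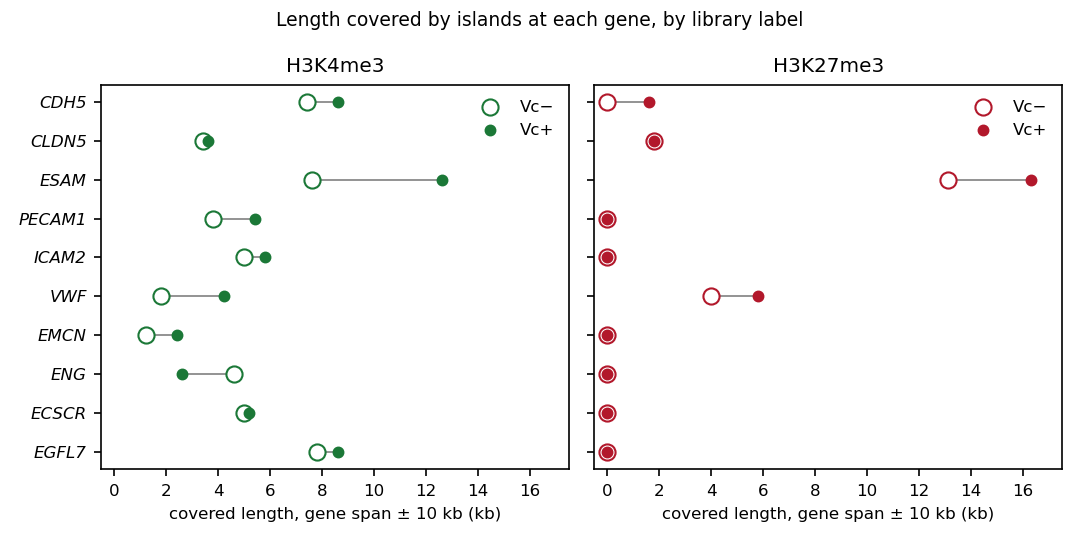
Length in kb covered by H3K4me3 (left) and H3K27me3 (right) islands within the span of each gene and 10 kb on either side, with open circles for the Vc− library and filled circles for the Vc+ library. For H3K4me3 9 of 10 filled circles lie to the right, with ENG the other way, and for H3K27me3 6 genes are at 0 in both libraries. The lengths include islands at neighbouring genes.

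Islands were also matched between conditions by an overlap of at least 1 bp. Of the 23 H3K4me3 islands at these genes in the Vc− library, 17 overlapped an island of the other list, where 88.5% of the whole list did, and of the 19 in the Vc+ library, 16 did, where 88.4% of the whole list did. The 6 unmatched islands of the Vc− library lay at ENG, ICAM2, PECAM1 and VWF and were 0.4 to 1 kb wide. The 3 of the Vc+ library lay at CDH5, ESAM and VWF and were 1 to 2.2 kb wide. Apart from the island at the VWF 5′ end, none of these 9 lay within 1 kb of a 5′ end. For H3K27me3, 5 of 5 islands (Vc−) and 3 of 4 (Vc+) were matched, where 71.8% and 63% of the whole lists were.

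The start-site islands of H3K4me3 differed in width among the genes by several fold. For the genes without a listed start the 5′ end stood for it, and for EGFL7 the inner start was the marked one. In the Vc− library they ran from 1.2 kb at EMCN to 5.8 kb at CDH5, with a median of 3.3 kb over 8 genes, where 11663 genes with a listed and marked start had a median of 2.2 kb and an upper quartile of 3 kb. In the Vc+ library they ran from 2.2 kb at VWF to 8.6 kb at EGFL7, with a median of 4 kb over 9 genes, against 2.4 kb and an upper quartile of 3.4 kb over 11716 genes. The islands of CDH5 and ESAM were wider than those at 97.7% and 96.7% of genes (Vc−) and 92.2% and 98.1% (Vc+). The island at EGFL7 stood at 73.9% (Vc−) and 99.4% (Vc+), which follows from the gap of 0.4 kb in the first list. EMCN, at 7.97% and 46.1%, had a narrow island in the Vc− library.

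**Figure D4:**
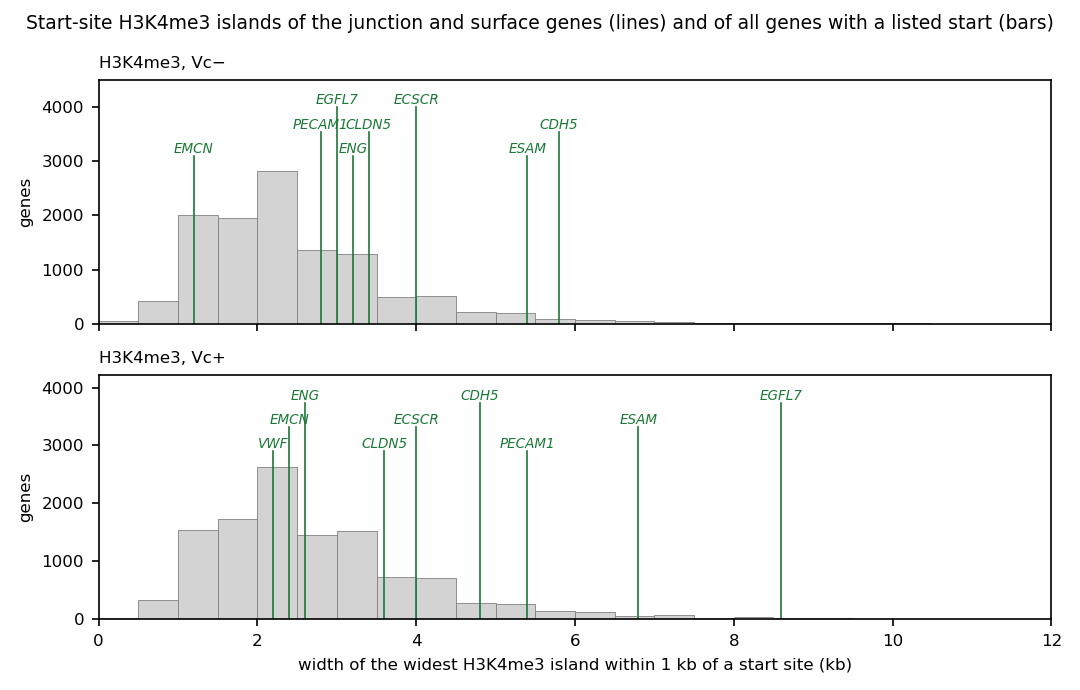
Number of genes by width in kb of their widest H3K4me3 island within 1 kb of a listed start site (grey bars, upper panel Vc−, lower panel Vc+), with a line for each of the junction and surface genes that had one. CDH5 and ESAM lie in the right tail in both libraries, EGFL7 in the Vc+ library, and EMCN, at 1.2 kb, lies left of the median of 2.2 kb in the Vc− library.

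The islands over a start site lay mostly on the gene side. The share of the island downstream of the start ran from 73.6% at PECAM1 to 98.6% at ECSCR in the Vc− library (7 genes, median 84.7%), and from 71.5% at PECAM1 to 98.2% at CLDN5 in the Vc+ library (9 genes, median 86.8%). The medians over genes with 1 listed start under an island were 61.2% (7882 genes) and 62.6% (7975 genes), with upper quartiles of 72.4% and 74%. All 7 genes and 8 of the 9 thus lay above the upper quartile, with PECAM1 in the Vc+ library below it. For the genes without a listed start the outermost gene end stood for the start, which places other starts downstream by construction. ENG and ECSCR, with 1 listed start each, had 76.8% and 98.6% (Vc−) and 86.8% and 93.6% (Vc+), and EMCN, also with 1 listed start, had 75.9% (Vc+).

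Other genes of junctions and of the endothelial surface were read at start sites by the same rule, from lists that were not picked for how their genes moved but drawn up with earlier results of these data known. Over all protein-coding genes 70.7% carried H3K4me3 in both libraries and 13.8% H3K27me3 in both. All 20 partners of adherens and tight junctions, among them the catenins and the ZO proteins, carried H3K4me3 in both libraries. Of these, 2 carried H3K27me3 in both and JAM2, a junctional adhesion molecule, in the Vc− library alone. The nearest island of the Vc+ library lay 1.14 kb from an end of JAM2. Of the 21 other claudins 8 had H3K4me3 in both libraries and 12 in neither, and CLDN15 had a 1 kb island in the Vc− library alone. H3K27me3 lay at 4 of these 21 in both libraries and at CLDN10 and CLDN23 in the Vc+ library alone. CLDN10 had 3.4 kb and CLDN23 1.8 kb, with no Vc− island nearer than 461 kb to a CLDN10 start and 16.5 kb to an end of CLDN23. Of 18 other cadherins 13 had H3K4me3 and 7 H3K27me3 in both libraries, and CDH18 had a 0.6 kb H3K4me3 island in the Vc+ library alone.

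Among 30 other endothelial surface genes 24 carried H3K4me3 in both libraries, 5 in neither, and CD93, a C-type lectin-like receptor, in the Vc+ library alone. The CD93 island was 0.8 kb wide, and the nearest Vc− island of that mark lay 1.72 kb from an end of the gene. H3K27me3 was called at 3 of the 30 in both libraries. It was called in the Vc+ library alone at MCAM, CLEC14A, PTPRM and CD34, with islands of 2, 2.2, 4.8 and 3.8 kb within 1 kb of a listed start, and in the Vc− library alone at none, where 2.64% of all genes had it in Vc+ alone. The CD34 island had a score of 3.66, below the score minimum of 5 tried for the 10 genes, and the nearest Vc− island lay 3.91 kb from the CLEC14A start. Of 15 epithelial junction genes 11 had H3K4me3 and 6 H3K27me3 in both libraries, with CRB3 marked by H3K4me3 in the Vc+ library alone. That island was 0.8 kb wide, and the nearest Vc− island of the mark lay 3.47 kb from a CRB3 start. Of 15 blood cell surface genes 3 had H3K4me3 in both libraries, and the same 3, ITGB3, CD44 and KIT, had H3K27me3 in both.

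**Figure D5:**
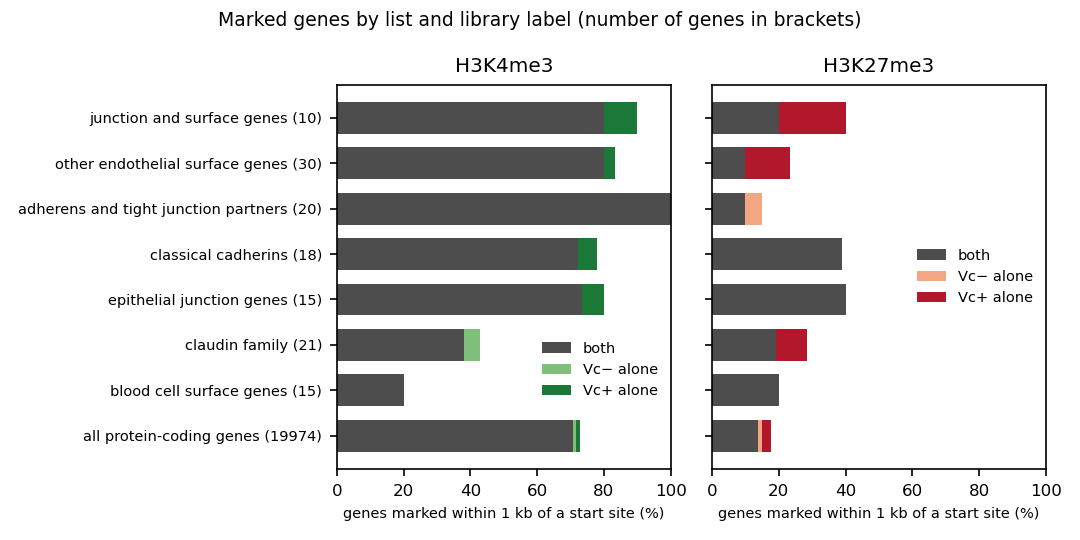
Share in percent of the genes of each list with an H3K4me3 (left) or H3K27me3 (right) island within 1 kb of a start site, split into both libraries, Vc− alone and Vc+ alone, with all protein-coding genes in the bottom row. The 10 junction and surface genes have H3K4me3 at 8 genes in both libraries and at 1 more in the Vc+ library, and their H3K27me3 calls in the Vc+ library alone are those at the 3′ ends of CDH5 and VWF.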

How the data were processed

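Groups follow the condition and antibody in the sample titles, with 1 library each, which leaves nothing to average and no test. The submitters' processing notes list SICER, an island caller, with Bowtie2 and deepTools, and the builds hg38 and GRCh38, but give neither role nor setting. The authors' score per island, as deposited, was read as a −log10 false discovery rate because its values run from just above 2 to 309 and then stand at 1000. Scores were ranked within a list only. Island widths are multiples of 200 bp. Read depth and use of the inputs are not given in the sources used here.

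Deposited starts count from 0 with inclusive ends, and coordinates here count from 1. Gene spans and promoter sequences are from RefSeq tables (GRCh38.p14). The promoter table gave starts for 15813 of 19974 genes. Without an entry both gene ends were used, and for the 10 genes the 5′ end by general knowledge of their strand was added after the data were seen, as were the covered-length, matching, width and downstream-share comparisons. An overlap of 1 bp counted. All 10 genes are named, and of other lists the genes whose call differed. The genes and lists were chosen with earlier results of these data known. Alternatives were other flanks and windows, score minimums of 5 and 10, an overlap of 400 bp, both gene ends, and equal island number or covered length.

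Interval calls were checked against bedtools 2.31.1 (79896 of 79896 pairs of gene and list were called alike) and tested on simulated data (200 of 200 planted islands found in each list, over 19974 genes). Python 3.11.15, numpy 2.4.6 and matplotlib 3.10.9 were used.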

Additional observations from a re-analysis of the deposited data

How the results depend on the processing

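Of 76 recomputed counts, 65 were within 1.5 times the value reported. The counts of marked genes by span stayed within this range under every alternative run, and for H3K4me3 they were 10 of 10 throughout. For H3K27me3, reported at 3 (Vc−) and 4 (Vc+) genes, a flank of 20 kb gave 4 genes in each library. A flank of 0 kb gave 2 (Vc−, without VWF) and 4 (Vc+). Read at the 5′ end, H3K27me3 was called at 1 gene in each library, against 2 (Vc−) and 4 (Vc+) reported at start sites. H3K4me3 in the Vc+ library alone, reported at 1 gene (VWF), was called at 2 genes (ICAM2 and VWF) with a window of 2 kb. It was called at 0 with a window of 5 kb, a score of at least 10, or equal covered length, cut by score or by score per kb. The changes with these 2 windows came from islands near the 3′ ends, since both gene ends were used. At the 5′ end by known strand, a window of 5 kb still gave VWF. H3K4me3 in the Vc− library alone, reported at 0, was called at 1 gene at the 5′ end with a window of 5 kb (ICAM2), and at 1 (EMCN) with equal covered length by score per kb. H3K27me3 in the Vc+ library alone, reported at 2 genes (CDH5 and VWF), was called at 1 (CDH5) with a window of 2 kb or 5 kb, and at 0 at the 5′ end by known strand, with either window. For all genes, equal covered length gave 119 genes with H3K4me3 in Vc+ alone and 344 in Vc− alone, the opposite order to the lists as deposited. The strand, score per kb and 5′ settings were chosen after seeing the data. Read depth limits any call of absence, and no paired analysis was possible because each group has 1 library.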
